A study of Mus musculus with 319 samples.

Results

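The genes described here are 7 chemosensory receptors other than the bitter receptors, namely Tas1r1, Tas1r2, Tas1r3, Sucnr1, Ffar2, Ffar3 and Vmn2r26, taken by name from the deposited count tables, which hold 48795 gene entries besides the spike-ins. All 7 were found by symbol. They were read in thymic tuft cells, sorted singly from pooled thymi through a gate of UVBlue-, CD11c-, CD45-, EPCAM+, MHCIIlo cells that were Flare25+. The cells labelled Aire-/- came from naive mice of strain C57BL/6.Il25.Aire with genotype Flare25/Flare25 Aire-/-, 6 weeks old except for 1 well of 5 weeks, and made 96 wells of batch 2. The wild-type (WT) cells came from naive mice of strain C57BL/6.Il25 with genotype Flare25/Flare25 at 6 weeks, and made 3 sets: 92 wells of batch 2, 95 wells of the June29 set and 31 wells of the June5 set, both of batch 1. The sex of the mice is given as mixed. Both genotypes carry Flare25, a reporter of Il25, so cells without Il25 reporter signal were not sampled in either. Each set is 1 pool with no animals named, so values have counting intervals but no error across animals, and no test between sets was made.

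Over the 301 cells kept, 34.9% were positive for Tas1r3, 18.3% for Tas1r1 and 9.30% for Sucnr1, with 5 or more reads as the limit, while Tas1r2, Ffar2, Ffar3 and Vmn2r26 were each positive in 5 cells or fewer. Tas1r1-positive cells held a median of 10 bitter receptor genes per cell, against 1.5 in the other cells. No receptor of the 7 passed the size rule between the cells labelled Aire-/- and the WT cells of batch 2. Of all genes at 5 CPM or more, 2.04% passed it as higher and 1.19% as lower in the cells labelled Aire-/-. Tas1r2 and Vmn2r26 lay under 5 CPM in both sets and could not pass.

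Taste receptors of the T1R family work as pairs. T1R1 with T1R3 forms the umami receptor, which binds amino acids, and T1R2 with T1R3 forms the sweet receptor. In taste cells and tuft cells, taste receptors act through the G protein subunit gustducin (Gnat3), phospholipase C beta (Plcb2) and the cation channel Trpm5. Sucnr1 is the receptor for extracellular succinate, by which small intestinal tuft cells of the mouse respond to succinate made by microbes. Ffar2 and Ffar3 are receptors for short chain fatty acids such as acetate and propionate, and Ffar2 is also known from neutrophils. Vmn2r26 belongs to the vomeronasal type 2 receptors, a large family best known from sensory neurons of the vomeronasal organ, and has been described in tuft cells of the mouse small intestine.

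In the GENCODE M21 annotation of GRCm38, the 3 T1R genes lie on chromosome 4. Tas1r1 spans 152027914 to 152038568 on the minus strand, Tas1r2 spans 139653538 to 139670280 on the plus strand, and Tas1r3 spans 155859268 to 155863362 on the minus strand. Sucnr1 lies on chromosome 3 from 60081869 to 60087566 on the plus strand. Ffar2 (30818348 to 30823775) and Ffar3 (30854330 to 30856178) are neighbours on the minus strand of chromosome 7, and Vmn2r26 lies on chromosome 6 from 124024568 to 124065806 on the plus strand. Counts were made per gene over the exons that the authors' annotation gave it.

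The promoters of the 3 T1R genes and of Sucnr1 are shown because the first 3 set the gene that was nearly unread (Tas1r2) beside those that were read, and the last holds a motif that is rare among promoters. Each covers 250 bases before the RefSeq start of the gene to 50 bases after it, on GRCm38.p6, 5' to 3' on the strand of the gene. The RefSeq start lies 78 bases inside the GENCODE gene for Tas1r1 (152038490) and 9 bases inside for Tas1r3 (155863353), and is the same base for Tas1r2 and Sucnr1. Capitals mark matches on either strand to the octamer ATGCAAAT, the motif of POU factors, to the TATA box TATAAA, to the CCAAT box CCAAT and to the GC box GGGCGG.
Tas1r1 (chr4:152038441-152038740, minus strand): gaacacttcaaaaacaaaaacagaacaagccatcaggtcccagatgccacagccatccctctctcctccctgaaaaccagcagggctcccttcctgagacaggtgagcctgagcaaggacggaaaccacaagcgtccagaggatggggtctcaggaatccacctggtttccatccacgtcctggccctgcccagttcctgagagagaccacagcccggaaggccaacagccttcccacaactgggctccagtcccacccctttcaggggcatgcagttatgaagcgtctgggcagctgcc
Tas1r3 (chr4:155863304-155863603, minus strand): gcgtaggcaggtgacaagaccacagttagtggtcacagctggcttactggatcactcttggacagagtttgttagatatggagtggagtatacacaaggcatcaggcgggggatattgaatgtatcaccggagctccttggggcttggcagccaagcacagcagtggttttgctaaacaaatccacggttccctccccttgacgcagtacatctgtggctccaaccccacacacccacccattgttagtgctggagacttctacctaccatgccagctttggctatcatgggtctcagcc
Tas1r2 (chr4:139653288-139653587, plus strand): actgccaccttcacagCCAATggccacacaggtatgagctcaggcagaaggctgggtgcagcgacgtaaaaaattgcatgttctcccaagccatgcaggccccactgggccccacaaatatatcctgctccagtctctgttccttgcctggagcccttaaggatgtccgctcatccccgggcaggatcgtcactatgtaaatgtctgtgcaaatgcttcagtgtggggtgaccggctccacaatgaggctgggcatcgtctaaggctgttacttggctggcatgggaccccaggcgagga
Sucnr1 (chr3:60081619-60081918, plus strand): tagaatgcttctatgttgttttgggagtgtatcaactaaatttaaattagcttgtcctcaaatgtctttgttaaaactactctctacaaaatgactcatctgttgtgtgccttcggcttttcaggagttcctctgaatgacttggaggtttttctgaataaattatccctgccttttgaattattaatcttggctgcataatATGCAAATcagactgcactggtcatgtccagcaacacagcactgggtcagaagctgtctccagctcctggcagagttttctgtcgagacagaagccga
The Sucnr1 window held 1 octamer, which starts 48 bases before that start, and 1.74% of 32817 promoters of this length held an octamer. The Tas1r2 window held 1 CCAAT box, which 37.4% of promoters held. The Tas1r1 and Tas1r3 windows held none of the 4 motifs, and TATA boxes and GC boxes were found in 13.6% and 35.6% of promoters. GC content was 58% for Tas1r1, 52.7% for Tas1r3, 56.3% for Tas1r2 and 40.7% for Sucnr1. A match is a description of the letters and shows no binding.

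Of the wells with a single sorted cell, 96 of 96 were kept in the set labelled Aire-/-, 89 of 92 in WT batch 2, 87 of 95 in June29 and 29 of 31 in June5. Median gene reads per cell were 638298, 566923, 1150167 and 539655 in that order, so June29 cells were the deepest. All 12 listed tuft cell markers, among them Trpm5, Avil, Pou2f3 and Dclk1, were positive in at least 5% of the cells of every set. Aire itself, the transcriptional regulator that the label names as deleted, had 152.7 CPM in the cells labelled Aire-/-, against 18.9 CPM in WT batch 2, 11.2 CPM in June29 and 7.84 CPM in June5. A count over the whole gene does not show whether the deleted part was read, so this count checks no label, and the cells are called by their label throughout. CPM is the reads of a gene scaled to all gene reads, in the usual unit, and the CPM of a set rests on the summed reads of its cells. The no-cell well of batch 1 had 9892 gene reads and 0 reads of each of the 7 receptors, which is too shallow to limit their background.

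A gene was called positive in a cell that held 5 or more of its reads, and found in a set where at least 5% of the cells were positive. By that rule, 3 of the 7 receptors were found in the cells labelled Aire-/- (Tas1r1, Tas1r3 and Sucnr1), the same 3 in WT batch 2, 2 in June29 (Tas1r1 and Tas1r3) and 4 in June5 (Tas1r1, Tas1r3, Sucnr1 and Vmn2r26, the last from 2 cells). Of all gene entries, 23.6%, 22.9%, 24.7% and 23.9% were found in the 4 sets in the same order. At least 1 of the 7 receptors was positive in 57 of 96 cells labelled Aire-/- (59.4%), 37 of 89 cells of WT batch 2 (41.6%), 40 of 87 cells of June29 (45.98%) and 13 of 29 cells of June5 (44.8%). Across all 301 cells, 51.2% had none, 38 cells had 2, 7 had 3, 1 had 4 and the rest had 1, so a cell that carried any of these receptors mostly carried a single one. The cell with 4 was labelled Aire-/- and held Tas1r1, Tas1r3, Sucnr1 and Vmn2r26.

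**Figure D1:**
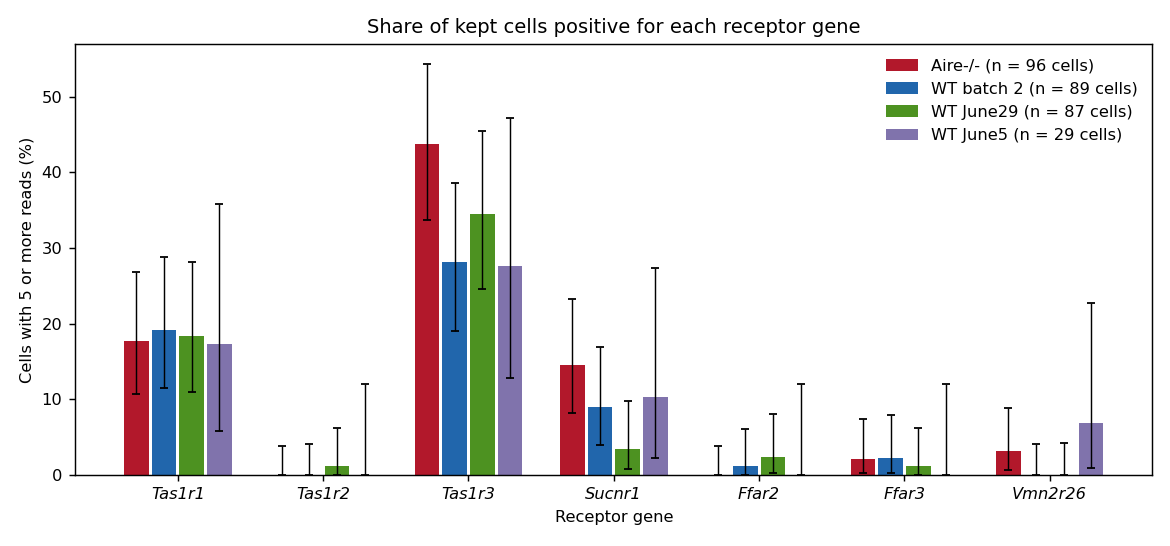
Share of kept cells with 5 or more reads of each receptor gene (y axis, percent), by set; bars are shares and lines are exact 95% Clopper-Pearson intervals for counting error only. Tas1r3 lies between 27.6% and 43.75%, Tas1r1 between 17.2% and 19.1%, Sucnr1 between 3.45% and 14.6%, and the other 4 genes at or below 6.90%.

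The receptor families to which these genes belong or compare set a scale for these shares. Over all cells, 26 of 40 bitter receptor entries (Tas2r) were found, with a median share of positive cells of 9.47%, and Tas1r3 (34.9%) lay below only Tas2r108 (41.5%) and Tas2r117 (36.2%). Of all Vmn2r entries, 1 was found, Vmn2r19, at 6.31% of cells, and the 95th percentile of the family was 0.664%. None of the Vmn1r entries and none of 16 trace amine receptor entries (Taar) was found, and 2 of 1330 olfactory receptor entries (Olfr) were, Olfr461 at 52.5% and Olfr456 at 5.98% of cells. The 95th percentile of the share was 0.332% for both Vmn1r and Olfr, which the shares of Ffar2 (0.997%), Ffar3 (1.66%) and Vmn2r26 (1.66%) exceeded and that of Tas1r2 (0.332%, which is 1 cell) equalled. The median share was 0 in the Vmn1r, Vmn2r and Olfr families.

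Tas1r3, the subunit common to the sweet and umami receptors, was the most widely read of the 7. It was positive in 42 of 96 cells labelled Aire-/- (43.75%, 95% interval 33.6 to 54.3), 25 of 89 cells of WT batch 2 (28.1%, 19.1 to 38.6), 30 of 87 cells of June29 (34.5%, 24.6 to 45.4) and 8 of 29 cells of June5 (27.6%, 12.7 to 47.2). The 4 intervals overlap. After thinning to 231697 gene reads, which left out shallower cells, the shares were 39.3%, 30.4%, 32.9% and 34.8% in the same order. June5 no longer lay lowest, at 8 of 23 cells, with the number of its positive cells unchanged. Its level over the set was 104.7 CPM in the cells labelled Aire-/-, 62.95 CPM in WT batch 2, 97.4 CPM in June29 and 47.1 CPM in June5. Reads were concentrated in few cells: positive cells ran from 7.0 to 1280 CPM with a median of 181.8 in the cells labelled Aire-/-, from 4.37 to 780 CPM with a median of 158.8 in WT batch 2, from 11.1 to 2797 CPM with a median of 134.4 in June29 and from 44.997 to 492 CPM with a median of 71.7 in June5. The median cell, positive or not, had 1.01 CPM in the cells labelled Aire-/-, 0 CPM in WT batch 2, 0.475 CPM in June29 and 0 CPM in June5. The 50-cell wells held 33 Tas1r3 reads (61.15 CPM) in the well labelled Aire-/- and 34 reads (47.2 CPM) in the WT well. In such a pooled well, fewer cells with a transcript and less of it per cell cannot be told apart. The last exon of Tas1r3 shares 36 bases with Dvl1 on the opposite strand, and the strand setting of the counting is not given in the sources used here.

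Tas1r1, the umami subunit, was read in a nearly constant share of cells: 17 of 96 labelled Aire-/- (17.7%, 10.7 to 26.8), 17 of 89 in WT batch 2 (19.1%, 11.5 to 28.8), 16 of 87 in June29 (18.4%, 10.9 to 28.1) and 5 of 29 in June5 (17.2%, 5.85 to 35.8). Its level was 71.3 CPM in the cells labelled Aire-/-, 95.3 CPM in WT batch 2, 66.1 CPM in June29 and 54.7 CPM in June5, an order in which single cells weigh heavily. In June29, 1 cell with 4023 reads held 55.6% of all Tas1r1 reads, and without it the level was 30.02 CPM. Without their own top cells the other levels were 54.6 CPM in the cells labelled Aire-/-, 83.1 CPM in WT batch 2 and 41.7 CPM in June5. Among positive cells the median was 312 CPM (38.2 to 875) in the cells labelled Aire-/-, 494 CPM (27.99 to 905) in WT batch 2, 99.1 CPM (11.1 to 1660) in June29 and 251 CPM (63.2 to 697) in June5. The 50-cell wells held 11 Tas1r1 reads (20.4 CPM) in the well labelled Aire-/- and 70 reads (97.2 CPM) in the WT well. Per kilobase of exon, Tas1r1 and Tas1r3 lay at a like level: 24.9 and 29.7 CPM per kb in the cells labelled Aire-/-, 33.3 and 17.9 in WT batch 2, 23.1 and 27.6 in June29, and 19.1 and 13.4 in June5, so which of the pair was higher changed from set to set.

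Tas1r2, the sweet subunit, had 20 reads in all, from 1 cell of June29 (28.8 CPM in that cell), and 0 reads in the other 3 sets and in both 50-cell wells. A count of 0 allows a share of positive cells of up to 3.12% in the cells labelled Aire-/-, 3.37% in WT batch 2 and 10.3% in June5. The cell with Tas1r2 reads was also Tas1r3-positive and had no bitter receptor gene. It was positive for 7 of the 12 tuft cell markers and for 2 of 6 B cell markers, with 1 read of Ptprc, so leaving out cells with 2 or more leukocyte markers took the share of Tas1r2 in June29 to 0. The part of another cell type in these reads was not tested. Of the exon bases of Tas1r2, 49.6% also belong to Gm21969, a coding gene entry on the same strand, and reads that fall in both may have been left uncounted. Gm21969 itself had 3 reads, all in cells labelled Aire-/-, and any reads dropped for falling in both are not in the tables.

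**Figure D2:**
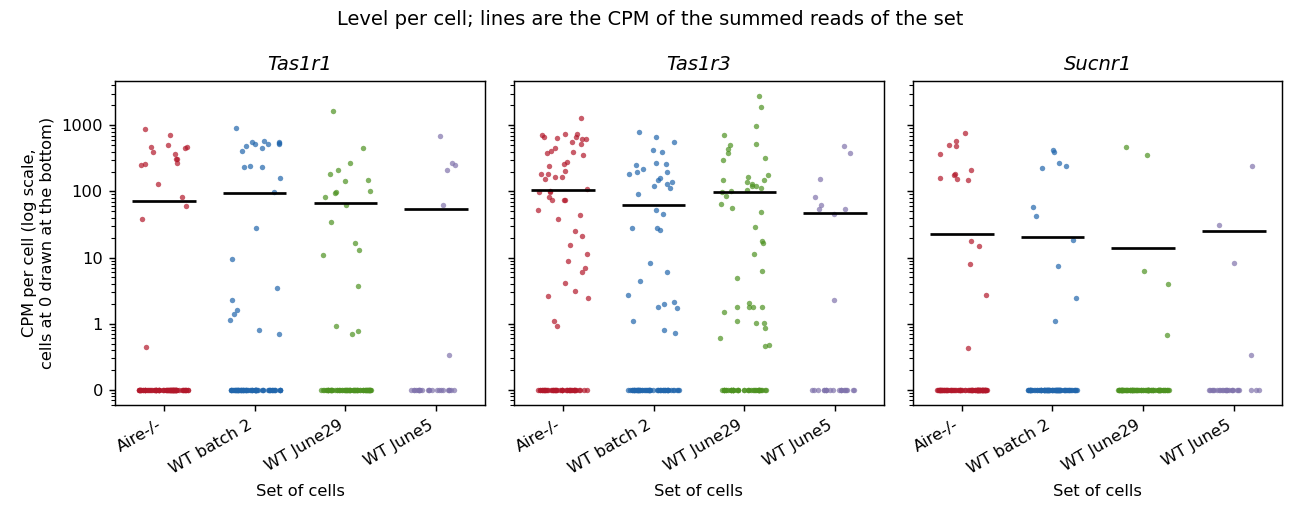
Level of Tas1r1, Tas1r3 and Sucnr1 in each kept cell (y axis, CPM, log scale with cells at 0 drawn at the bottom) by set; points are cells and black lines the CPM of the summed reads of the set. Over the 4 sets together, most cells lie at 0 for each gene, and positive cells reach 1660 CPM for Tas1r1, 2797 CPM for Tas1r3 and 759 CPM for Sucnr1.

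Sucnr1, the succinate receptor, was positive in 14 of 96 cells labelled Aire-/- (14.6%, 8.21 to 23.3), 8 of 89 cells of WT batch 2 (8.99%, 3.96 to 16.9), 3 of 87 cells of June29 (3.45%, 0.717 to 9.75) and 3 of 29 cells of June5 (10.3%, 2.19 to 27.4). Its intervals overlap between all sets. The lowest share was in June29, the deepest set. Its level was 22.9 CPM in the cells labelled Aire-/-, 20.6 CPM in WT batch 2, 14.1 CPM in June29 and 25.1 CPM in June5. The June5 level came almost wholly from 1 cell with 588 reads, which held 93.5% of the reads, and without it the level was 1.81 CPM. In June29 the top cell held 64.04% of the reads, and without it the level was 5.22 CPM, against 18.9 CPM in the cells labelled Aire-/- and 14.9 CPM in WT batch 2 without theirs. The 50-cell wells held 0 reads in the well labelled Aire-/- and 2 reads in the WT well.

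The short chain fatty acid receptors were each read in a handful of cells. Ffar2 was positive in 0 of 96 cells labelled Aire-/-, 1 of 89 cells of WT batch 2 (515.6 CPM in that cell), 2 of 87 cells of June29 (110.1 and 191.7 CPM) and 0 of 29 cells of June5. Trpm5 had 76 reads in the cell of WT batch 2, 9 reads in the higher June29 cell and 2045 reads in the lower one. Of the 8 listed neutrophil or macrophage markers, 2 were positive in the cell of WT batch 2 (Lyz2 with 45 reads among them), 0 in the higher June29 cell and 1 in the lower one (Lyz2, 61 reads), while Ptprc had 0 to 2 reads in the 3 cells. Without cells with leukocyte markers the share of Ffar2 in WT batch 2 was 0, as was that of Ffar3 in June29. Over the sets, the summed level of these markers was 117.1 CPM in the cells labelled Aire-/-, 42.4 CPM in WT batch 2, 58.7 CPM in June29 and 0.19988 CPM in June5, with Csf1r and Fcgr1 at 0 in every set. Of the 4 listed enteroendocrine-like markers, 2 were positive in the higher June29 cell. The cell of WT batch 2 and the lower June29 cell were each positive for 1. Each of the 4 was positive in 4.32% or less of all cells. The part of other cell types in the reads of these receptors was not tested.

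Ffar3 was positive in 2 of 96 cells labelled Aire-/- (384 and 94 reads), 2 of 89 cells of WT batch 2 (229 and 16 reads), 1 of 87 cells of June29 (19 reads) and 0 of 29 cells of June5. No cell was positive for both Ffar2 and Ffar3. All 5 Ffar3-positive cells were Trpm5-positive, with 660 to 2011 reads. Ptprc, the gene of CD45, was positive in 4 of the 5, against 82 of the other 296 cells (27.7%), with 206, 294 and 594 reads in 3 of those 4 and fewer in the fourth. Ptprc was read in 28.1% of the cells labelled Aire-/-, 29.2% of WT batch 2, 29.9% of June29 and 24.1% of June5, although the sort was CD45-, and its part in the Ffar3 result was not tested. The adjacent Ffar1, a receptor for longer fatty acids 1212 bases away, had 3 reads over all cells.

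Vmn2r26 was positive in 3 of 96 cells labelled Aire-/- (20, 21 and 21 reads), 0 of 89 cells of WT batch 2, 0 of 87 cells of June29 and 2 of 29 cells of June5 (70 and 54 reads). These 5 cells stood apart in what else they held. They had 22, 19 and 11 bitter receptor genes in the cells labelled Aire-/- and 16 and 27 in June5, against a median of 2 in the other 296 cells. All 5 were Gnat3-positive (1183 to 13104 reads), as were 65.9% of the other 296 cells. Tas1r1 was positive in 4 of the 5, against 18.3% of all cells, these 5 included. Sucnr1 was positive in 3 of the 5, against 9.30% of all cells. All 5, and no other cell, were positive for Vmn2r25, a second vomeronasal receptor gene 171105 bases away, with 19 reads or more in the cells labelled Aire-/- and 403 and 316 reads in June5. Of the words of 31 bases in Vmn2r26 transcripts, 19.5% also occur in those of Vmn2r25 and 27.9% in those of any other gene, so how reads divide between the pair is uncertain. The snoRNA entry Gm24843, which lies within Vmn2r26 on the other strand and shares no exon base with it, had 0 reads. The more widely read Vmn2r19 was positive in 19 cells, none of them among these 5.

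The comparison of genotypes within batch 2 asks whether loss of Aire goes with a change in these receptors in tuft cells. A gene was called between sets by size alone: 5 CPM or more on the higher side, a log2 fold of 1 or more either way once 1 CPM had been added to both levels, and a gap of 10 points or more between the shares of positive cells, with the same sign as the fold. By that rule, 0 of the 7 receptors were called in either direction, of which 5 had 5 CPM or more in either set. Of 12759 genes at that level, 2.04% were called higher and 1.19% lower in the cells labelled Aire-/-. As no test was made, no p-value stands behind the count of 0. The log2 fold of the cells labelled Aire-/- over WT batch 2 was 0.72 for Tas1r3 (95% counting interval 0.65 to 0.80), 0.14 for Sucnr1 (-0.0020 to 0.29), -0.41 for Tas1r1 (-0.49 to -0.33) and 0.51 for Ffar3 (0.25 to 0.78). Ffar2 had 0 reads in the cells labelled Aire-/- and 363 reads in WT batch 2, all in 1 cell, which is at least 152.8-fold lower when 3 reads over the set stand for the 0. Vmn2r26 had 62 reads in 3 cells labelled Aire-/- and 0 reads in WT batch 2, at least 16.4-fold higher by the same floor, at a level under 5 CPM, and Tas1r2 had 0 reads in both. Of the 3 limits of the rule, Tas1r3 missed the fold, and Ffar2 missed the gap in shares. The share of Tas1r3-positive cells was 15.7 points higher in the cells labelled Aire-/-, and 4.85% of the genes had a gap of that size or more. The gap was 8.91 points after thinning to an equal depth, which left 84 cells labelled Aire-/- and 79 of WT batch 2. Of the 6 listed Aire mTEC markers, 2 (Aire and Ctss) were called higher, and levels were higher for 5 and lower for Fezf2 (19.8 CPM in the cells labelled Aire-/- and 29.7 CPM in WT batch 2). Their summed level was 281 CPM in the cells labelled Aire-/- and 85.5 CPM in WT batch 2, and without Aire itself 128.02 and 66.6 CPM in the same order. Without Aire, the sum was 128.7 CPM in June29 and 79.5 CPM in June5. Ctss had 65.1 CPM in the cells labelled Aire-/-, 19.6 CPM in WT batch 2, 70.1 CPM in June29 and 26.1 CPM in June5. None of the 6 was at 0 in the cells labelled Aire-/- or in WT batch 2, and their part in the Tas1r3 difference was not tested.

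A deposited table numbers the wells of batch 2 as 1 or 2 in a column headed Batch, which the labels do not describe. Both numbers, called well group 1 and well group 2 here, hold cells of both genotypes, so the differences could be read within each. Tas1r3 was positive in 47.9% of the cells labelled Aire-/- and 35.4% of the WT cells in well group 1, and in 39.6% of the cells labelled Aire-/- and 19.5% of the WT cells in well group 2, with log2 folds of 0.75 and 0.85. The direction of Tas1r3 was thus the same in both, while its share was lower in well group 2 in each genotype. Sucnr1 differed by well group: its level was 23.9 CPM in cells labelled Aire-/- and 35.6 CPM in WT cells in well group 1, and 21.8 CPM in cells labelled Aire-/- and 2.32 CPM in WT cells in well group 2, with log2 folds of -0.55 and 2.78. Tas1r1 also changed direction, with log2 folds of 0.22 in well group 1 and -1.33 in well group 2. Ffar3 had 0 reads in cells labelled Aire-/- and 245 reads in WT cells in well group 1, and 478 reads in cells labelled Aire-/- and 3 reads in WT cells in well group 2, from 2 positive cells on the higher side each time.

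The WT sets share the genotype label and differ in batch or, for June29 and June5, in set within batch 1. Of the 7 receptors, 0 were called in any of the 3 pairs. Tas1r2, Ffar3 and Vmn2r26 lay under 5 CPM in every WT set, so they could not be called in any pair. Ffar2 lay under 5 CPM in June29 and June5, so it could not be called between those sets. Of genes at 5 CPM or more in either set of a pair, 9.37% were called in either direction between WT batch 2 and June29. The share was 10.9% between WT batch 2 and June5, and 9.69% between June29 and June5. The log2 fold of Tas1r3 was -0.62 for WT batch 2 over June29 and 1.03 for June29 over June5, with shares 6.90 points apart in the second pair, against 0.72 between the genotypes.

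Tas1r1 needs Tas1r3 to form the umami receptor, and the single cells show how often both were read together. Of 55 Tas1r1-positive cells, 29 were Tas1r3-positive (52.7%, 95% interval 38.8 to 66.3), against 30.9% (25.2 to 37.1) of the other 246 cells. By set, the share was 52.9% against 41.8% in the cells labelled Aire-/-, 64.7% against 19.4% in WT batch 2, 50.0% against 30.99% in June29 and 20.0% against 29.2% in June5, the last from 5 Tas1r1-positive cells. Thinned to an equal depth, which left 271 cells, it was 45.1% against 31.8% over the sets together, and 37.5% against 39.7% in the cells labelled Aire-/-. Another 26 cells had Tas1r1 without Tas1r3 and 76 had Tas1r3 without Tas1r1, so most Tas1r3-positive cells carried neither T1R partner at this depth. Within sets, Spearman's rho between the CPM of the pair was 0.01 in the cells labelled Aire-/- (96 cells), 0.37 in WT batch 2 (89 cells), 0.22 in June29 (87 cells) and 0.03 in June5 (29 cells). The cells of a set share a pool, so these are descriptions.

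**Figure D3:**
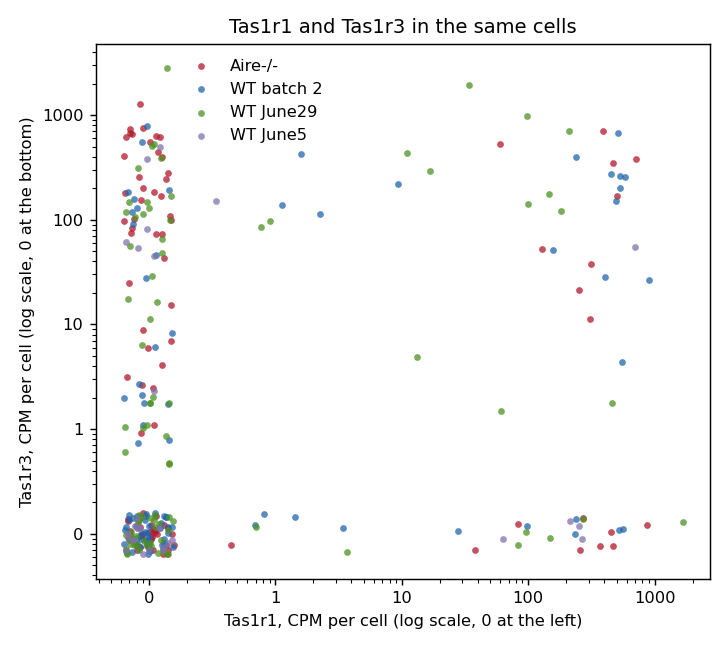
Tas1r3 against Tas1r1 in each of 301 kept cells (both axes CPM, log scale, with cells at 0 drawn at the left or bottom and spread for visibility). With 5 reads as the limit, 29 cells were positive for both genes, 26 for Tas1r1 alone and 76 for Tas1r3 alone.

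Sucnr1 was read more often in cells with Tas1r1 than in cells without it. It was positive in 23.6% (13.2 to 37.0) of Tas1r1-positive cells, against 6.10% (3.45 to 9.86) of the others, and in the same direction in each set: 29.4% against 11.4% in the cells labelled Aire-/-, 29.4% against 4.17% in WT batch 2, 12.5% against 1.41% in June29 and 20.0% against 8.33% in June5. Read the other way, 13 of 28 Sucnr1-positive cells held Tas1r1 (46.4%), against 15.4% of the others. Between Tas1r3 and Sucnr1 the shares were close, at 8.57% of Tas1r3-positive and 9.69% of other cells.

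Trpm5, Plcb2 and Gng13, transduction genes downstream of taste receptors, were read in nearly every tuft cell, with or without these receptors. Trpm5, Plcb2 and the G protein gamma subunit Gng13 were each positive in all 55 Tas1r1-positive cells, against 98.8%, 90.7% and 95.1% of the other cells. Gnat3 was positive in 81.8% of Tas1r1-positive cells and 63.01% of the others, and its median level was 3052 CPM in Tas1r1-positive cells and 83.7 CPM in the others. Tas1r3-positive cells (70.5%) and other cells (64.3%) were closer to each other in Gnat3.

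The number of bitter receptor genes per cell was set against Tas1r1, Tas1r3 and Sucnr1 in the same way. For Tas1r1 the median was 11 in Tas1r1-positive cells against 2 in other cells labelled Aire-/-, 5 against 1 in WT batch 2, 7.5 against 1 in June29 and 20 against 1 in June5. Over all cells it was 10 against 1.5, and 10 against 1 in the cells deep enough to be thinned to 231697 gene reads. Tas1r1-positive cells had more gene reads (a median of 888193, against 693868 in the others). Thinning made gene reads equal among the cells it kept, and the part of other differences between the cells was not tested. Sucnr1-positive cells had a median of 6.5 bitter receptor genes, against 2 in the others, and 6.5 against 2 when thinned. Tas1r3-positive cells had a median of 3, against 2, and 88.6% of them had at least 1 bitter receptor gene, against 65.3% of the others. The direction of that median differed by set. It was 4 against 3 in the cells labelled Aire-/- and 5 against 1 in WT batch 2, but 1 against 2 in June29 and 1.5 against 4 in June5. Of the cells with any of the 7 receptors, 22 had no bitter receptor gene.

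**Figure D4:**
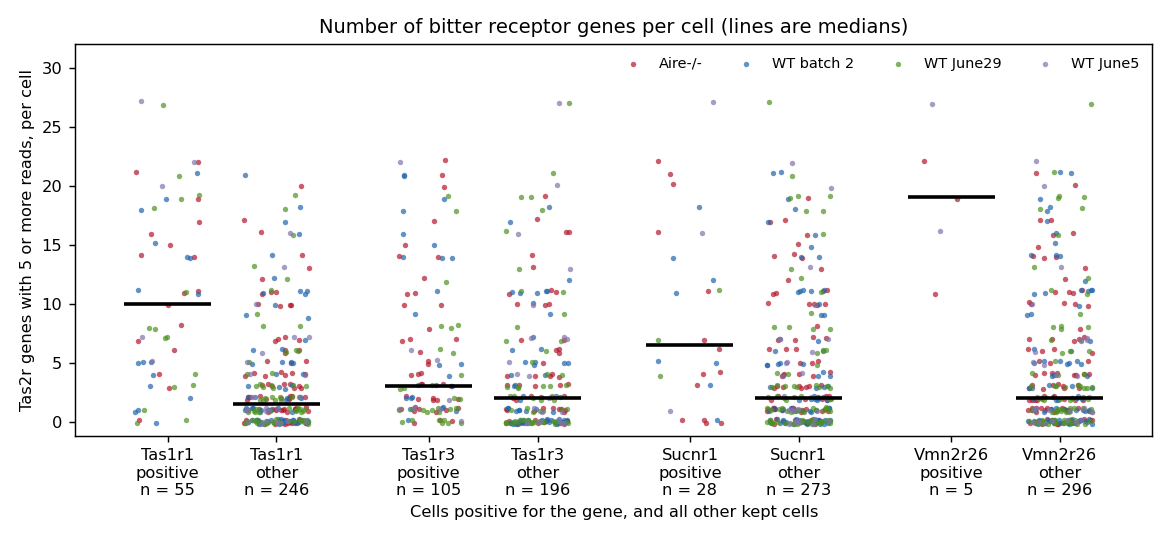
Number of bitter receptor genes (Tas2r) with 5 or more reads in each kept cell (y axis), in cells positive for a receptor and in all other kept cells; points are cells coloured by set, and black lines are medians. The medians are 10 against 1.5 for Tas1r1, 3 against 2 for Tas1r3, 6.5 against 2 for Sucnr1 and 19 against 2 for Vmn2r26. Within June29 and within June5, the median for Tas1r3 was lower in positive than in other cells.

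Tuft cell markers were set beside the receptors in the same way. Of the 12 listed markers, 3 had a share at least 10 points higher in Tas1r1-positive cells than in other cells (Pou2f3, Il25 and Gnat3) and 4 a share at least 10 points lower (Dclk1, Gfi1b, Sh2d6 and Hmx2). The same 4 were at least 10 points lower in Sucnr1-positive cells, where Ltc4s alone was higher. For Tas1r3 none was lower, and Pou2f3 and Chat were higher. Dclk1, a kinase widely used as a tuft cell marker, was positive in 56.4% of Tas1r1-positive cells and 87.8% of the others, with median levels of 161.2 and 1068 CPM. By set, its share was 47.1% against 84.8% in the cells labelled Aire-/-, 58.8% against 80.6% in WT batch 2, 68.75% against 95.8% in June29 and 2 of 5 cells against 95.8% in June5. In Sucnr1-positive cells Dclk1 was positive in 53.6%, against 84.98% of the others, with median levels of 27.7 and 965 CPM, and lower in share in each of the 4 sets. In Tas1r3-positive cells the share was 79.05%, against 83.7%.

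**Figure D5:**
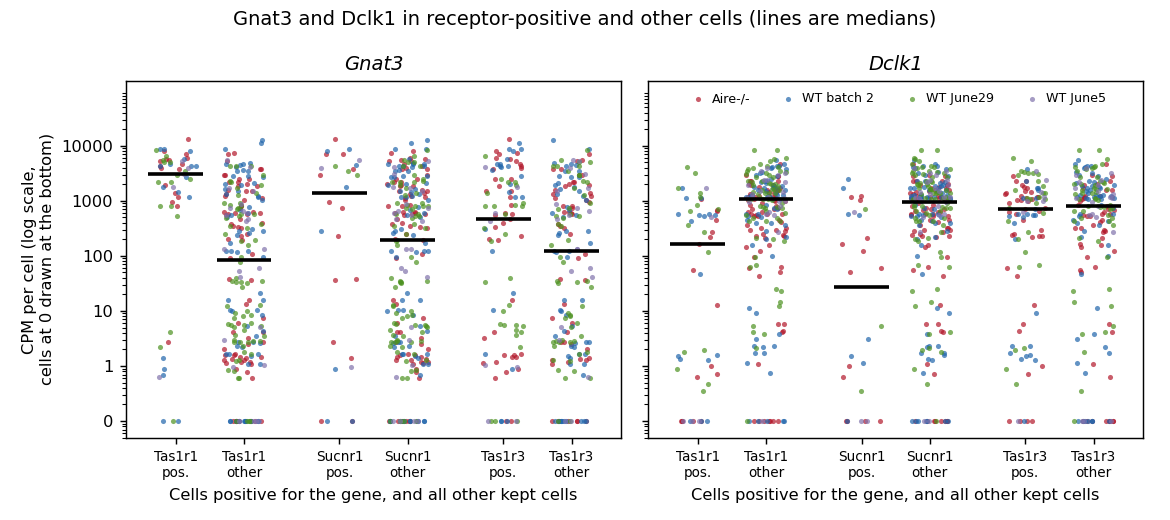
Level of Gnat3 (left) and Dclk1 (right) in each kept cell (y axis, CPM, log scale with cells at 0 drawn at the bottom), in cells positive for Tas1r1, Sucnr1 or Tas1r3 and in all other kept cells; points are cells coloured by set, and black lines are medians. Median Gnat3 is 3052 against 83.7 CPM and median Dclk1 161.2 against 1068 CPM for Tas1r1, while the Dclk1 medians for Tas1r3 are 722 and 797 CPM.

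The genes whose levels followed a receptor most closely were taken by the mean over the 4 sets of Spearman's rho across cells, among 7318 genes positive in at least 10% of the cells of every set. For Tas1r1 they were Tas2r115 (0.43), Tas2r137 (0.43), Eml2 (0.42), B3gnt2 (0.41) and Gnb3 (0.41), where the median of the genes compared was 0.04. Gnat3 was 21st (0.35) and Tas1r3 807th (0.16), and Tas1r1 itself had a rho of 0.22 with the gene reads of a cell. For Tas1r3 the correlations were weaker, with Chchd3 (0.28), Dvl1 (0.27), Pax1 (0.25), Cptp (0.24) and Upp1 (0.23) first, where the median was 0.02. Dvl1, which overlaps its end on the opposite strand, and Cptp, 1361 bases before its start, are the neighbours of Tas1r3 in the genome. Sucnr1 and the rarer receptors were positive in too few cells for such a ranking.

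Genes of the pathways around these receptors were described from lists. Of 12 taste transduction partners, 11 were found in the cells labelled Aire-/-, 10 in WT batch 2, 11 in June29 and 10 in June5, and 1 was called higher and 0 lower in the cells labelled Aire-/- than in WT batch 2. Over all genes, 2.04% were called higher and 1.19% lower, and the share found in a set lay between 22.9% and 24.7%. That gene was Calhm3, a subunit of the channel that releases ATP from taste cells, at 430 CPM in cells labelled Aire-/- and 213 CPM in WT batch 2 (log2 fold 1.01). Calhm3 had 264 CPM in June29 and 396 CPM in June5. The median log2 fold of the list was 0.16, where the median of all genes at 5 CPM or more was -0.07. The G protein beta subunits of the list were also widely read, with Gnb3 in 88.4% and Gnb1 in 83.7% of all cells. Of 15 other nutrient and metabolite receptors, 2 were found in the cells labelled Aire-/-, 2 in WT batch 2, 2 in June29 and 1 in June5, with 0 called. Only 4 of the 15 had 5 CPM or more in the cells labelled Aire-/- or WT batch 2, the level needed for a call. Casr, the calcium-sensing receptor, which also responds to amino acids, was the widest, positive in 14.6% of cells labelled Aire-/-, 15.7% of WT batch 2, 14.9% of June29 and 13.8% of June5. Casr was positive in 25.5% of Tas1r1-positive cells and 12.6% of the others. By set, the shares were 23.5% against 12.7% in the cells labelled Aire-/- and 17.6% against 15.3% in WT batch 2. They were 37.5% against 9.86% in June29 and 20.0% against 12.5% in June5, the last from 5 Tas1r1-positive cells.

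Of 11 G alpha subunits through which such receptors signal, 8, 8, 10 and 8 were found in the cells labelled Aire-/-, WT batch 2, June29 and June5, and 0 were called. Gnai2, an inhibitory subunit, was positive in 87.7% of all cells and Gna14, of the Gq family, in 28.2%. Of 13 genes that make, use or carry succinate and short chain fatty acids, 8 were found in each set, led by the succinate dehydrogenase subunits Sdha (87.7% of all cells), Sdhb (70.4%), Sdhc (58.5%) and Sdhd (50.2%) and by Suclg1 (57.1%). Among the 13, 1 was called lower in the cells labelled Aire-/- than in WT batch 2. It was Suclg2, a subunit of succinyl-CoA ligase, at 52.98 CPM and 109.04 CPM in that order (log2 fold -1.03). In the other WT sets Suclg2 was lower still, at 45.4 CPM in June29 and 44.7 CPM in June5. Of 11 genes of sugar sensing that does not use T1R receptors, 2, 3, 3 and 3 were found in the same order and 0 were called, with the glucose carrier Slc2a1 the widest at 64.5% of all cells. In the G alpha, succinate and sugar sensing lists, 10, 9 and 6 genes had 5 CPM or more in the cells labelled Aire-/- or WT batch 2. Over all genes at that level, 2.04% were called higher and 1.19% lower. Of all gene entries, between 22.9% and 24.7% were found in a set.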

How the data were processed

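Libraries of polyadenylated RNA were made with Smart-seq2, which has no molecular identifiers, with ERCC spike-ins, per the labels' protocols. The deposited tables hold counts, whole reads per gene and well. The submitters' processing notes name STAR, Subread, featureCounts 1.5.3, R 3.4.0 and GRCm38. Neither the annotation nor the strand setting is named there. A deposited table of scores per gene and well, whose making is not given, entered no value and served only to choose wells in an alternative.

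A well was kept with 10000 or more gene reads, 1000 or more genes and at most 20% mitochondrial reads, and no doublet caller was run. Shares have exact Clopper-Pearson and levels exact Poisson intervals at 95%, and limits for a count of 0 are 3 counts of the total, all for counting error only. Cells were thinned to 231697 gene reads, the 10th percentile, leaving out shallower cells (12 labelled Aire-/-, 10 of WT batch 2, 2 of June29, 6 of June5). The fold computation recovered known folds in simulated data. The 2 no-cell wells of batch 2 were not analysed here. Python 3.11.15, numpy 2.4.6, pandas 2.3.3 and scipy 1.17.1 were used.

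The 7 receptors and the lists were chosen with earlier results of these data known. Named from a list were members positive in 50% or more of the cells of a set and those called between genotypes, and outside the lists the 5 genes with the highest mean rho. Genes on the same chromosome as a receptor (Cptp, Ffar1, Vmn2r25) were named after their values were seen. The same holds for the most widely read Vmn2r and Olfr entries, Casr, Gna14 and the promoters shown.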

Additional observations from a re-analysis of the deposited data

How the results depend on the processing

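The count of receptors found depended on the share asked for. At 2% of cells it was 5 in the cells labelled Aire-/- and 4 in June29, and at 20% of cells it was 1 in each of the 4 sets. The count of receptors called between the cells labelled Aire-/- and WT batch 2 was 1 with the mean of per-cell CPM (Tas1r3, log2 fold 1.06) and 1 within well group 2 (Sucnr1, 2.78), and 0 under the other 10 alternatives. Over all genes, 412 were called in either direction. The count was 246 with the top cell of each gene's higher set left out, 1107 within well group 1 and 1027 within well group 2 (the undescribed Batch numbers of a deposited table), and it stayed within a factor of 1.5 of 412 under the other 9 alternatives, of which leaving out cells with leukocyte markers (498 genes) was chosen for this count after seeing the data. Of the alternative shares of positive cells, 5 left their counting interval. Of the alternative levels, 46 left theirs and 66 did not, as did 28 and 42 of the alternative folds. The share of Tas1r1-positive cells with Tas1r3 stayed within its interval under all 15 alternatives, 3 in each set and 3 over all cells. No paired analysis was possible because each set is 1 pool without replicates, and no replicate could be left out. The number of cells limits June5: with 29 cells, a count of 0 allows a share of up to 10.3%. Thinning lost no positive cell of Tas1r2, Ffar2, Ffar3 or Vmn2r26, while 20 of 28 Sucnr1-positive cells were left.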

Other observations

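Olfr461, an olfactory receptor entry, was positive in more cells than any of the 7 receptors: 52 of 96 cells labelled Aire-/- (54.2%), 49 of 89 cells of WT batch 2 (55.1%), 46 of 87 cells of June29 (52.9%) and 11 of 29 cells of June5 (37.9%). Its level was 65.4 CPM in cells labelled Aire-/-, 122.9 CPM in WT batch 2, 117.99 CPM in June29 and 102.9 CPM in June5. Vmn2r19 was positive in 12 cells labelled Aire-/- (12.5%), 5 cells of WT batch 2 (5.62%), 1 cell of June29 (1.15%) and 1 cell of June5 (3.45%). It was positive in 1 of 55 Tas1r1-positive cells and in 18 of the other 246.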
